A study of Homo sapiens with 12 samples.

Results

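The EGFR family comprises the receptor tyrosine kinases EGFR, ERBB2 and ERBB3 and the growth factors that act through them, here EGF, TGFA, AREG, EREG, HBEGF, BTC and NRG1. Members were chosen as all probe sets (sets of short probes summarised into a single value) whose only gene symbol in the platform annotation is 1 of these 10 genes. That gave 35 of the 54675 probe sets on the array, and they read 9 of the 10 genes. There were 9 for EGFR, 3 for ERBB2, 5 for ERBB3, 1 for EGF, 3 for TGFA, 2 for EREG, 4 for HBEGF, 2 for BTC and 6 for NRG1. AREG, amphiregulin, had 0 probe sets under this rule and was not analysed here.

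Messenger RNA was measured on 12 Affymetrix arrays in MCF-10A cells, an established non-tumorigenic line of human mammary epithelium, collected 48 h after retroviral infection. All 4 groups of 3 biological replicates were infected and grown under the line's standard conditions: empty vector, wild-type full-length Notch1, Notch1 L1601P+∆P, and NICD. NICD is the released intracellular part of the receptor, which enters the nucleus. The descriptions of its samples add gfp to the name, and the labels do not say whether that is a fused tag or a reporter. L1601P alters the domain that keeps the receptor closed, and ∆P removes the PEST region that limits the life of the intracellular domain. All constructs were delivered to 1 cell line by virus, and levels of the introduced protein were not analysed here. The labels call the replicates biological without saying whether each was a separate culture or infection, and the p-values rest on the spread between these samples.

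Ligands of this family are made as membrane-bound precursors that ADAM proteases cut free. EGF, TGFA and AREG bind EGFR, HBEGF, BTC and EREG bind EGFR and ERBB4, and NRG1 binds ERBB3 and ERBB4. ERBB2 has no known ligand of its own and ERBB3 has little kinase activity, so both act mainly in pairs with other receptors. Bound EGFR recruits adaptors such as SHC1 and GRB2 and starts the Ras and MAPK cascade, which induces early transcription factors and feedback inhibitors. In mammary epithelium the pathway drives growth and duct formation, and MCF-10A cells are commonly cultured with added EGF.

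Values are deposited log2 signals, on which a difference of 1 is a doubling, given as the value of each array or as a mean ± SD over 3 arrays. Precision is limited by the number of arrays, whose medians ran from 5.640 to 5.697. The first principal component of all genes, each read on its brightest probe set, held 69.7% of the variance. It placed NICD at 38.4 to 41.5, Notch1 L1601P+∆P at -2.70 to -1.26, full-length Notch1 at -18.9 to -17.1 and vector at -21.1 to -19.1. NOTCH1 itself read 6.42 to 6.77 with vector on the probe set 223508_at. There it read 9.11 to 9.19 with full-length Notch1, 8.72 to 8.76 with Notch1 L1601P+∆P and 8.75 to 8.83 with NICD. Its brighter probe set 218902_at moved less, and its arrays lay at 9.38 to 9.50 with vector, 9.49 to 9.56 with the full-length form, 9.44 to 9.55 with Notch1 L1601P+∆P and 9.64 to 9.83 with NICD. On that probe set, which stands for the gene, NICD was called (0.28, adjusted p = 0.00399), and full-length Notch1 (0.08) and Notch1 L1601P+∆P (0.06) were not. Differences are log2 fold changes ± standard error from limma, with a call made where the p adjusted by Benjamini-Hochberg was under 0.05, over all genes or, where stated, over all probe sets. Of the 4 epithelial markers, CDH1 stood at 11.95 ± 0.05 with vector and 11.96 ± 0.07 with NICD, and KRT19 was low, at 4.51 and 4.63. EPCAM fell from 10.53 to 9.80 with NICD, a difference of -0.74 (adjusted p = 1.30e-06), and differed by -0.31 with Notch1 L1601P+∆P (adjusted p = 0.0122). KRT18 went from 12.53 to 12.28 with NICD (adjusted p = 0.00216). The basal keratin KRT5 read 13.33 with vector and 13.91 with NICD.

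With NICD, the receptor EGFR and the ligands EREG and HBEGF were lower than with vector, and the ligand TGFA was higher. EREG fell to 42.5% of its vector level, HBEGF to 56.0% and EGFR to 60.6%, while TGFA rose to 140%. These were 4 of the 9 member genes, 1 higher and 3 lower, where 27.6% of all genes were called, 9.54% higher and 18.1% lower. ERBB2, ERBB3, EGF, BTC and NRG1 were not called on their brightest probe sets. With Notch1 L1601P+∆P, EREG alone of the 9 was called, at 74.3% of vector, where 5.12% of all genes were called, 2.95% lower. With full-length Notch1, limma called 0 of the 9, 0 also at an unadjusted p under 0.05, where 0.0354% of all genes were called.

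For EREG, HBEGF and EGFR, lower with NICD, and TGFA, higher with NICD, the 250 bases before their annotated starts are shown. These genes were chosen after their calls were known. The sequences are from RefSeq on GRCh38.p14, 5′ to 3′. Letters that match TATAAA, the TATA box, or TGGGAA, the core that RBPJ, the DNA-binding partner of NICD, recognises, are in capitals. On the minus strand TGGGAA reads TTCCCA.
EREG, chr4:74364895-74365144, plus strand: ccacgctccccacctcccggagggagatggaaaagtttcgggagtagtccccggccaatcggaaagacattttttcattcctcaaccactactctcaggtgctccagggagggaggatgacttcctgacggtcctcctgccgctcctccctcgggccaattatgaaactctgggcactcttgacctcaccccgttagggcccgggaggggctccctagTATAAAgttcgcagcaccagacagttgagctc
HBEGF, chr5:140346604-140346853, minus strand: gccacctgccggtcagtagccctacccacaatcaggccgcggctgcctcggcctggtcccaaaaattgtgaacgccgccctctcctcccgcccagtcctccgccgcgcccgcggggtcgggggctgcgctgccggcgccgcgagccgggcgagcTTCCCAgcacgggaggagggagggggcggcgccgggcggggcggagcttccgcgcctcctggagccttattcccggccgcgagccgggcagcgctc
EGFR, chr7:55018767-55019016, plus strand: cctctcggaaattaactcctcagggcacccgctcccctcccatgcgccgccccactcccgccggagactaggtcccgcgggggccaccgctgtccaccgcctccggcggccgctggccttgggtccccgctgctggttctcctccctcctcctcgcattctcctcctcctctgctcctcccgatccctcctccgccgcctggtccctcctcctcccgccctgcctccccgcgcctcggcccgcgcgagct
TGFA, chr2:70553827-70554076, minus strand: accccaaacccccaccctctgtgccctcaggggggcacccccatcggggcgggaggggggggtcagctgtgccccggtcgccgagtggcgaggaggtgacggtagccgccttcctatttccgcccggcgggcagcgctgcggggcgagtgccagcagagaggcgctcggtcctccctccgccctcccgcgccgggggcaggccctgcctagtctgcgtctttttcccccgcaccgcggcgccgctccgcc
The EREG sequence holds TATAAA 32 bases before the start, a motif found on either strand in 11.5% of all 35116 RefSeq promoters of 300 bases. The HBEGF sequence holds TTCCCA 96 bases before the start, and TGGGAA was found on either strand in 24.0% of all promoters. The EGFR and TGFA sequences hold neither.

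The search covered 10 RefSeq windows of 300 bases (250 before to 50 after the start) for 8 of the 10 genes. EGFR and TGFA have a second window each. ERBB3 had no window in the set used. NRG1 was left out of the search by choice, so the counts do not cover it. TGGGAA lay in 3 of the 10 windows, those of HBEGF and the second windows of TGFA and EGFR. Its longer form GTGGGAA lay in 0 of the 10, against 6.25% of all promoters. TGANTCA, the site of the AP-1 factors that MAPK signalling induces, lay in 3 windows, those of ERBB2, EGF and the second of EGFR, against 7.71% of all promoters. TATAAA lay in the windows of EREG and AREG and in the second of EGFR. Both strands were searched, and GTGGGAA contains TGGGAA. A match is a description of the letters, and binding was not measured.

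**Figure D1:**
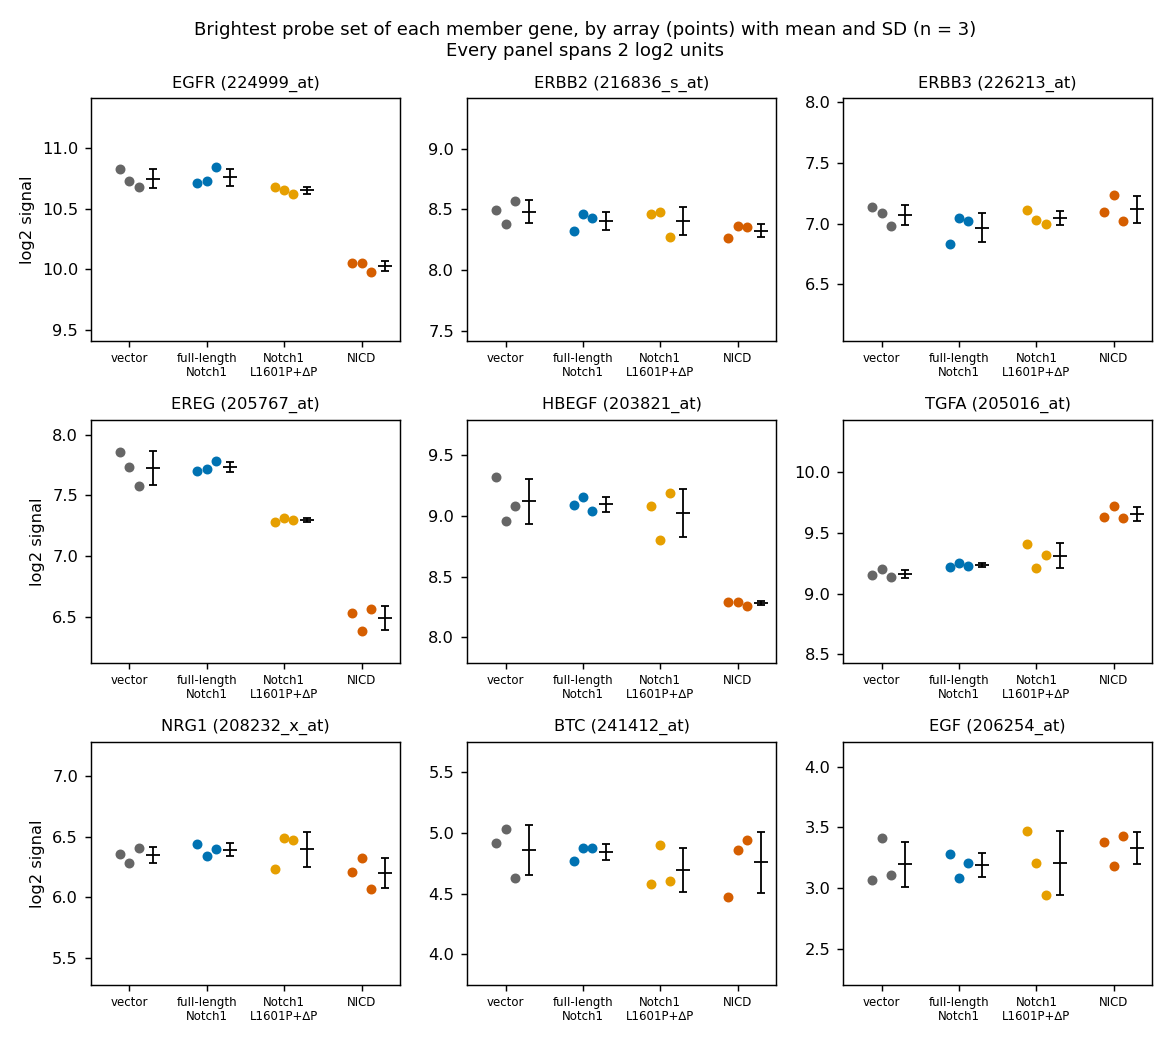
Log2 signal of the brightest probe set of each of the 9 measured member genes, 1 point per array, with the mean and SD of each group (n = 3) beside the points. The NICD arrays of EGFR (9.98 to 10.05), EREG (6.38 to 6.56) and HBEGF (8.26 to 8.29) lie below all vector arrays, and those of TGFA (9.62 to 9.72) above them.

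EGFR, the receptor of most of these ligands, was among the brighter transcripts on the array. Its brightest probe set, 224999_at, read 10.83, 10.73 and 10.68 with vector, 10.71, 10.73 and 10.84 with the full-length receptor, 10.68, 10.65 and 10.62 with Notch1 L1601P+∆P, and 10.05, 10.05 and 9.98 with NICD. The NICD arrays lay below all 9 others, and those with full-length Notch1 overlapped the vector arrays. The difference was -0.72 ± 0.06 with NICD (adjusted p = 7.24e-07, limma). For Notch1 L1601P+∆P it was -0.10 ± 0.06 (adjusted p = 0.348), with a 95% interval of -0.22 to 0.03, and with full-length Notch1 0.02 ± 0.06. NICD also differed from Notch1 L1601P+∆P by -0.62 (adjusted p = 4.88e-06) and from full-length Notch1 by -0.74 (adjusted p = 6.16e-07). In cells measured in bulk, fewer cells that express a gene and less RNA per cell cannot be told apart.

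Of the 9 EGFR probe sets, 5 were lower with NICD at an adjusted p over all probe sets, and their falls differed in size. Next to 224999_at, 201984_s_at read 10.01, 10.01 and 10.03 with vector and 9.37, 9.32 and 9.38 with NICD, a difference of -0.66 ± 0.06 (adjusted p = 1.85e-06). The probe set 201983_s_at read 10.96, 10.82 and 10.99 with vector and 9.36, 9.65 and 8.99 with NICD, a difference of -1.59 ± 0.13 (adjusted p = 1.34e-06). Its NICD arrays had an SD of 0.33, against 0.04 and 0.03 for 224999_at and 201984_s_at. The dimmer 210984_x_at fell from 8.33, 8.26 and 8.28 to 6.79, 7.37 and 6.73, a difference of -1.33 ± 0.14 (adjusted p = 1.61e-05). The probe set 211607_x_at fell from 7.92, 7.82 and 7.81 to 6.57, 6.89 and 6.09, also a difference of -1.33 ± 0.15 (adjusted p = 2.81e-05). These 3 probe sets shared the larger fall and the larger spread, with SDs of 0.36 and 0.40 on the latter pair, and NICD replicate 2 was the highest NICD array on each. By Affymetrix naming, _s_at and _x_at mark probes that can match more than one transcript or gene. Where on the EGFR transcript these probes lie was not analysed here, and the difference in size between probe sets was not tested.

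The remaining 4 EGFR probe sets were dim, with means over the 12 arrays of 5.03 to 6.21, and were not called against vector. Their NICD differences were 0.12 for 211550_at, 0.01 for 211551_at, -0.20 for 1565483_at and -0.10 for 1565484_x_at. The probe set 1565483_at was lower with NICD than with full-length Notch1, a difference of -0.46 (adjusted p = 0.0069 over all probe sets). Its arrays read 5.13, 5.55 and 5.44 with NICD, 5.77, 5.70 and 6.03 with full-length Notch1, and 5.60, 5.58 and 5.55 with vector.

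**Figure D2:**
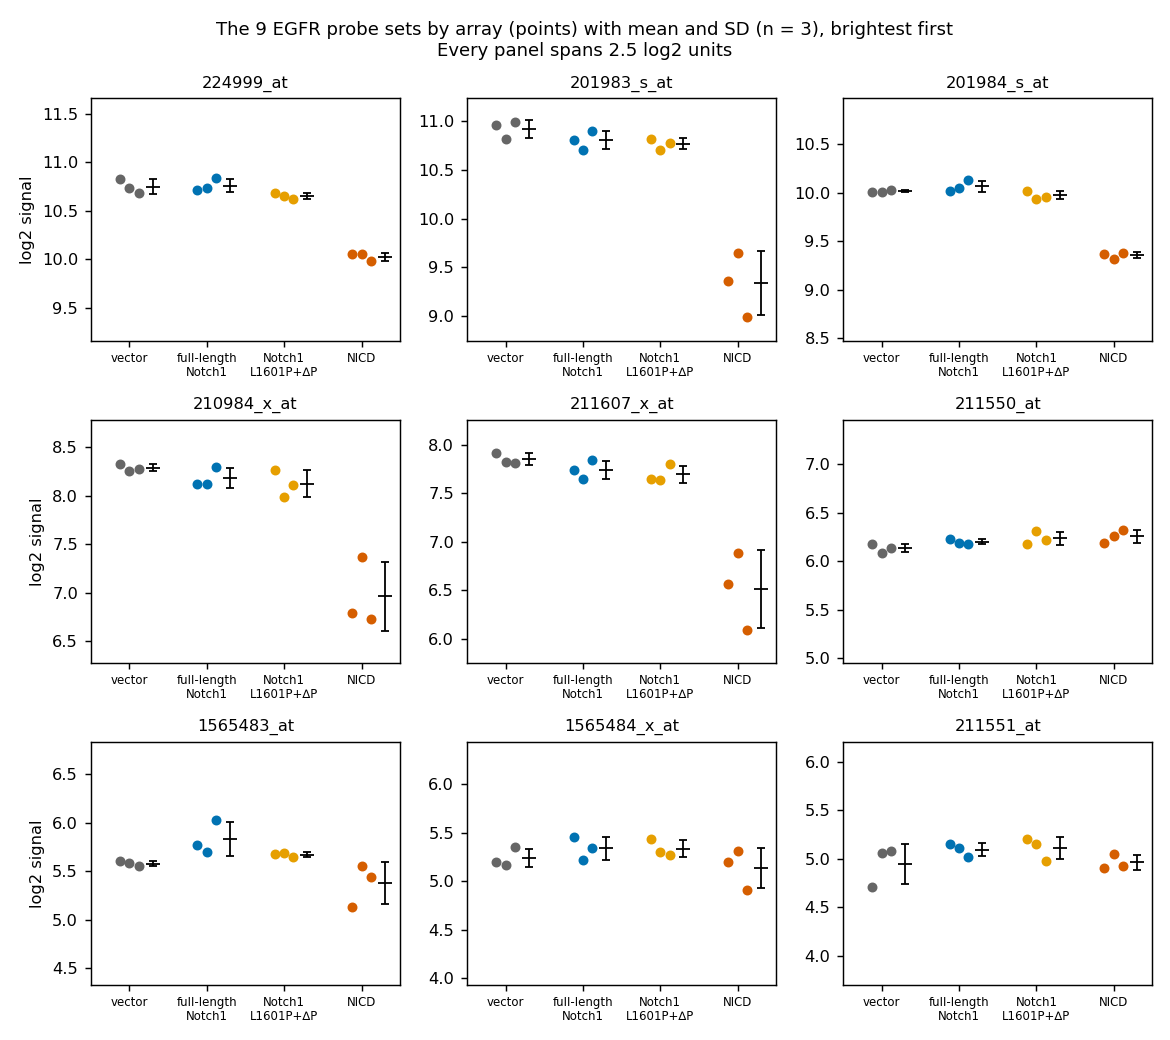
Log2 signal of each of the 9 EGFR probe sets on each array, 1 panel per probe set, with the mean and SD of each group (n = 3) beside the points. The 5 brighter probe sets are lower with NICD, the 3 with the largest falls (-1.33 to -1.59) also have the widest spread among NICD arrays, and the 4 dim ones stay between 4.71 and 6.32.

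ERBB2, the receptor that pairs with the others, gave different answers on its 3 probe sets. The brightest, 216836_s_at, read 8.49, 8.38 and 8.57 with vector, 8.32, 8.46 and 8.43 with the full-length receptor, 8.46, 8.48 and 8.27 with Notch1 L1601P+∆P, and 8.26, 8.36 and 8.35 with NICD. The NICD and vector arrays were separated narrowly, and the difference of -0.16 ± 0.07 was not called (adjusted p = 0.125). The dimmer 210930_s_at read 6.20, 6.06 and 6.44 with vector, 6.18, 6.33 and 6.13 with the full-length receptor, 6.03, 5.87 and 6.11 with Notch1 L1601P+∆P, and 5.67, 5.66 and 5.53 with NICD. The NICD arrays lay below all others, and the difference from vector was -0.62 ± 0.10 (adjusted p = 0.000597 over all probe sets). The dimmest, 234354_x_at, read 5.49, 5.20 and 5.89 with vector and 4.98, 5.13 and 5.23 with NICD, so that the groups overlapped. Its difference of -0.42 ± 0.14 passed narrowly (adjusted p = 0.0482) and was lost in 13 of 16 alternative settings, with an adjusted p of 0.162 without vector replicate 3 among them. With the mean of all 3 probe sets as the value of the gene, ERBB2 was called, at -0.40 (adjusted p = 0.00258).

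ERBB3, the receptor of NRG1, was called on none of its 5 probe sets. Its brightest, 226213_at, read 7.14, 7.09 and 6.98 with vector and 7.10, 7.24 and 7.02 with NICD. The difference was 0.05 ± 0.08 (adjusted p = 0.701), with a 95% interval of -0.12 to 0.22. Over its 5 probe sets the NICD differences ran from 0.02 to 0.18. The largest difference of an ERBB3 probe set from vector was with Notch1 L1601P+∆P, 0.30 on 1563253_s_at, with arrays at 5.91, 5.81 and 5.86 above the vector arrays at 5.72, 5.51 and 5.45 (adjusted p = 0.0785 over all probe sets). Without vector replicate 1 that probe set was called with Notch1 L1601P+∆P (0.38, adjusted p = 0.0351) and with NICD (0.26, adjusted p = 0.0378).

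EREG, epiregulin, showed the largest change of any member gene on the brightest probe sets, and was the one member gene called there with both NICD and Notch1 L1601P+∆P. Of all member probe sets, 3 of EGFR had larger NICD differences. Its probe set 205767_at read 7.86, 7.73 and 7.58 with vector, 7.70, 7.72 and 7.78 with the full-length receptor, 7.28, 7.31 and 7.30 with Notch1 L1601P+∆P, and 6.53, 6.38 and 6.56 with NICD. The levels fell into 3 steps that did not overlap, with vector and full-length Notch1 together at the top, Notch1 L1601P+∆P below them and NICD lowest. Against vector the difference was -1.23 ± 0.07 with NICD (adjusted p = 4.36e-08), a 2.35-fold fall. For Notch1 L1601P+∆P it was -0.43 ± 0.07 (adjusted p = 0.00424), and with full-length Notch1 0.01 ± 0.07. The step between Notch1 L1601P+∆P and NICD was itself called, at -0.81 (adjusted p = 4.53e-06), as was that between full-length Notch1 and Notch1 L1601P+∆P, at -0.44 (adjusted p = 0.00453). The second EREG probe set, 1569583_at, was dim, between 4.34 and 4.78 on all arrays, and its NICD difference of -0.16 was not called (adjusted p = 0.230 over all probe sets). With the mean of both probe sets as the value of the gene, the NICD difference was -0.69 and still called, and that with Notch1 L1601P+∆P was -0.19 and not called (adjusted p = 0.0859).

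HBEGF, a heparin-binding ligand that ADAM proteases release from the cell surface, was called with NICD and with neither other construct. The probe set 203821_at read 9.32, 8.96 and 9.08 with vector, 9.09, 9.16 and 9.04 with the full-length receptor, 9.08, 8.80 and 9.19 with Notch1 L1601P+∆P, and 8.29, 8.29 and 8.26 with NICD. The NICD arrays lay close together and below the other 9, which overlapped each other. The NICD difference was -0.84 ± 0.10 (adjusted p = 4.21e-05). For Notch1 L1601P+∆P it was -0.10 ± 0.10 (adjusted p = 0.629), with a 95% interval of -0.32 to 0.13, and NICD differed from that group by -0.74 (adjusted p = 0.000193) and from full-length Notch1 by -0.81 (adjusted p = 5.73e-05). A second probe set, 38037_at, read 8.38, 8.11 and 8.20 with vector and 7.56, 7.47 and 7.31 with NICD, a difference of -0.78 (adjusted p = 7.62e-05 over all probe sets). The dim probe sets 244857_at and 222076_at differed by -0.05 and 0.02 and were not called.

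TGFA, transforming growth factor alpha, was the one member gene that rose. The probe set 205016_at read 9.15, 9.20 and 9.14 with vector, 9.22, 9.25 and 9.23 with the full-length receptor, 9.41, 9.21 and 9.32 with Notch1 L1601P+∆P, and 9.63, 9.72 and 9.62 with NICD. The NICD arrays lay above all others, and those of Notch1 L1601P+∆P lay between them and vector. The difference was 0.49 ± 0.06 with NICD (adjusted p = 3.29e-05). For Notch1 L1601P+∆P it was 0.15 ± 0.06 and was not called (adjusted p = 0.179), while its 95% interval of 0.02 to 0.27 lay above 0. After cyclic loess between arrays the latter was 0.21 and was called (adjusted p = 0.0438). NICD exceeded Notch1 L1601P+∆P by 0.34 (adjusted p = 0.000963) and full-length Notch1 by 0.42 (adjusted p = 0.000126). The probe set 211258_s_at read 7.56, 7.63 and 7.52 with vector and 7.96, 8.0 and 7.91 with NICD, a rise of 0.39 (adjusted p = 0.000527 over all probe sets). The third, 205015_s_at, read 6.90, 7.04 and 6.81 with vector and 7.18, 7.31 and 7.07 with NICD, a rise of 0.27 (adjusted p = 0.0257), lost in 5 of its alternative settings.

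**Figure D3:**
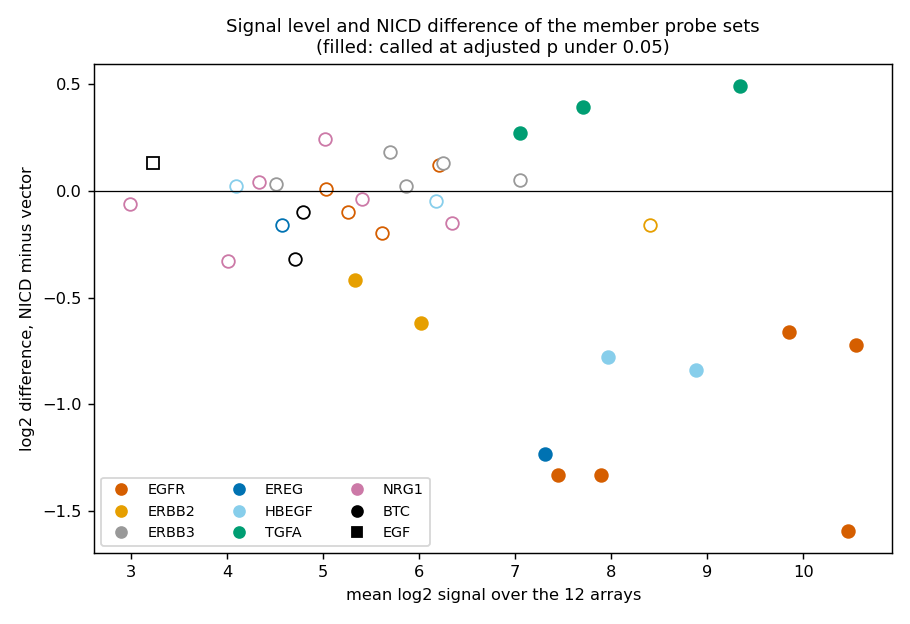
Mean log2 signal over the 12 arrays (horizontal axis) against the NICD minus vector log2 difference (vertical axis) of the 35 member probe sets, coloured by gene, filled where called over all probe sets. The called probe sets lie mainly on the brighter side, and those under a mean of 6 stay between -0.42 and 0.24.

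EGF and BTC were low on this array and were not called in any comparison on their brightest probe sets. EGF, the founding ligand of the family, had 1 probe set, which read 3.07, 3.41 and 3.11 with vector and 3.38, 3.18 and 3.43 with NICD. Only 8.96% of probe sets had a lower mean. BTC, betacellulin, read 4.92, 5.03 and 4.63 with vector and 4.47, 4.86 and 4.94 with NICD on 241412_at. Its second probe set, 207326_at, read 4.71, 5.16 and 4.93 with vector and 4.68, 4.55 and 4.59 with NICD. With Notch1 L1601P+∆P it read 4.64, 4.64 and 4.43. Both groups lay below the vector arrays on it, by -0.32 with NICD and -0.36 with Notch1 L1601P+∆P. Neither was called (adjusted p = 0.125 and 0.202 over all probe sets). The 95% intervals of the NICD difference were -0.15 to 0.41 for EGF and -0.39 to 0.19 for BTC on 241412_at. Dim signals are compressed on such arrays, and whether that hid a change in EGF or BTC was not tested. The lack of a call does not show that either gene was unchanged.

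NRG1, the neuregulin that binds ERBB3, had 6 probe sets with means between 2.99 and 6.34, and 60.4% of all probe sets were dimmer than its brightest. The latter, 208232_x_at, was not called in any comparison. It read 6.36, 6.28 and 6.41 with vector and 6.21, 6.32 and 6.07 with NICD, and the groups overlapped. The difference was -0.15 ± 0.08 (adjusted p = 0.224), with a 95% interval of -0.32 to 0.03. The 6 differences ran from -0.33 to 0.24 and none was called. Against Notch1 L1601P+∆P the NRG1 difference became called without Notch1 L1601P+∆P replicate 1 (-0.28, adjusted p = 0.0324), and against full-length Notch1 without NICD replicate 2 (-0.25, adjusted p = 0.0455).

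Over the 35 probe sets, NICD was called against vector in 13, 3 higher and 10 lower, where 19.3% of all probe sets were called, 6.75% higher and 12.6% lower. Their differences ran from -1.59 to 0.49 and 22 were not called. A level of 6 was taken from the filter on dim probe sets and applied here after the values were seen. At a mean of 6 or more over the 12 arrays, 12 of 18 member probe sets were called, where 34.2% of all such probe sets were. Under 6, 1 of 17 was called, where 7.36% of all were. That mean includes the NICD arrays, and ERBB2 210930_s_at passed it at 6.02, with 6.24 for vector and 5.62 for NICD. Probe sets of the same gene are not independent readings. With Notch1 L1601P+∆P 1 of the 35 was called, the EREG probe set 205767_at, where 2.39% of all were, and with full-length Notch1 0, where 0.0110% of all were. The median difference of the 9 genes was -0.15 with NICD, beside -0.02 over all genes, -0.08 beside -0.01 with Notch1 L1601P+∆P, and -0.01 beside -0.01 with full-length Notch1. Under cyclic loess the share of called genes that were higher with NICD was 51.6% in place of 34.6%, and the 4 member genes kept their direction and their calls. The comparisons with vector share the vector arrays. Between the Notch1 groups, NICD differed from Notch1 L1601P+∆P in 4 of the 9 genes, where 19.8% of all genes were called, and from full-length Notch1 in 4, where 27.0% were. Notch1 L1601P+∆P differed from full-length Notch1 in 1, EREG, where 3.72% were.

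**Figure D4:**
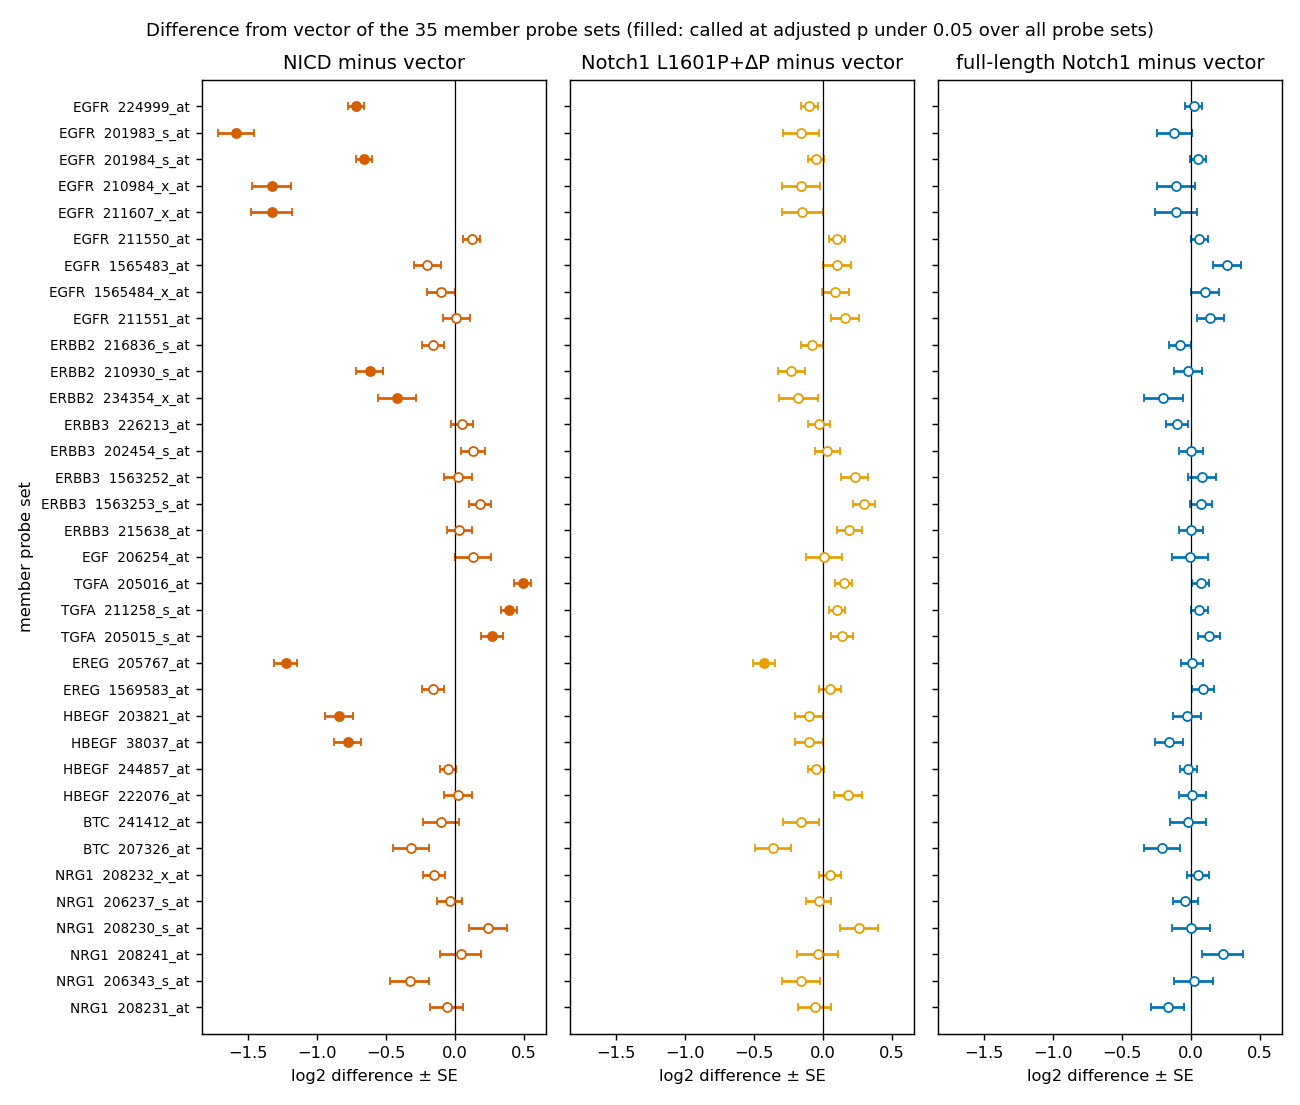
Log2 difference from vector of each of the 35 member probe sets with its standard error, for NICD, Notch1 L1601P+∆P and full-length Notch1. The largest falls are those of EGFR (-1.59) and EREG (-1.23) with NICD, and with full-length Notch1 the differences stay between -0.21 and 0.26.

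By pattern over the arrays, the genes closest to EREG were MIR100HG, CORO2A and SCNN1A, with root mean square distances of 0.0826, 0.0866 and 0.0954 over the 12 arrays after each gene's vector mean was subtracted. MIR100HG, a long non-coding host transcript of microRNAs, differed by -1.24 with NICD, -0.46 with Notch1 L1601P+∆P and 0.08 with full-length Notch1. CORO2A, a coronin, differed by -1.22, -0.32 and 0.04, and SCNN1A, a subunit of the epithelial sodium channel, by -1.33, -0.40 and -0.04. Closest to EGFR were ACACA, SCD and PRXL2A, at distances of 0.0374, 0.0547 and 0.0564. ACACA, the acetyl-CoA carboxylase of fatty acid synthesis, differed by -0.71, -0.14 and 0.03, and SCD, which desaturates fatty acids, by -0.76, -0.11 and 0.07.

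The other genes of the pathway were read from 6 role lists with 75 genes, 66 of them tested. With NICD 5 were higher, 26 lower and 35 not called, where 9.54% of all genes were higher and 18.1% lower, and the median was -0.09 beside -0.02 over all genes. None of the 4 tested family genes outside the members, ERBB4, NRG2, NRG3 and NRG4, was called, 0 also at an unadjusted p under 0.05. Of 9 genes of ligand shedding, 2 fell and 7 were not called, where 18.1% of all genes fell. ADAM15, a metalloproteinase, differed by -0.55 ± 0.09 (adjusted p = 0.000329) and its relative ADAM9 by -0.39 ± 0.06 (adjusted p = 0.000261). With Notch1 L1601P+∆P 0 of these 9 were called by limma, 1 at an unadjusted p under 0.05.

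Of 13 adaptors and effectors, 5 fell with NICD, 1 rose and 7 were not called, where 27.6% of all genes were called. SHC1, the adaptor that links the receptor to Ras, fell from 13.56 ± 0.06 to 12.82 ± 0.03, a difference of -0.74 ± 0.05 (adjusted p = 1.58e-07), and both its probe sets were called. PIK3CB, a catalytic subunit of PI3 kinase, differed by -0.40 (adjusted p = 0.000138) and PIK3R1, a regulatory one, by -0.39 (adjusted p = 0.00624). SOS2, an exchange factor for Ras, rose by 0.38 (adjusted p = 0.000900). Its 6 probe sets ran from -0.05 to 0.38 with NICD and 3 were called. With Notch1 L1601P+∆P, SHC1 differed by -0.24 (adjusted p = 0.0134) and SOS1 by -0.23 (adjusted p = 0.0385). Of the 2 SHC1 probe sets, 1 was called in that comparison over all probe sets. The SHC1 call was lost in 3 alternatives, among them without vector replicate 3 (adjusted p = 0.0611) and without Notch1 L1601P+∆P replicate 1 (adjusted p = 0.0574). The SOS1 call was lost in 13 of 19, and 0 of its 5 probe sets were called over all probe sets.

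Of 15 receptor inhibitors and turnover genes, 5 fell with NICD, 1 rose and 9 were not called, again where 27.6% of all genes were called. The rise was that of SH3KBP1, an adaptor that couples CBL to receptor uptake, from 9.97 ± 0.08 to 13.18 ± 0.02, or 3.21 ± 0.05 (adjusted p = 5.64e-13). It also rose by 1.30 ± 0.05 with Notch1 L1601P+∆P (adjusted p = 2.01e-08), and all 3 of its probe sets were called in both comparisons. CBLC, a ubiquitin ligase of EGFR, differed by -0.52 (adjusted p = 0.000249) and RNF41, a ubiquitin ligase of ERBB3, by -0.35 (adjusted p = 0.000905) with NICD. For CBLC 1 of 2 probe sets was called. LRIG1, an inhibitor of the receptors, differed by -0.34 with NICD (adjusted p = 0.0194) and by -0.42 with Notch1 L1601P+∆P (adjusted p = 0.0294), calls that were lost in 4 and 8 of 19 alternatives. Over all probe sets, 1 of the 4 LRIG1 probe sets was called with NICD and 0 with Notch1 L1601P+∆P. LRIG3 differed by -0.36 with Notch1 L1601P+∆P (adjusted p = 0.0236), a call lost in 7 of 19 alternatives.

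Of 6 tested genes of the Ras and MAPK cascade, 1 rose, 2 fell and 3 were not called with NICD, beside the same 27.6%. KSR1, a scaffold of the cascade, rose by 2.26 ± 0.08 (adjusted p = 2.16e-10), and by 0.80 ± 0.08 with Notch1 L1601P+∆P (adjusted p = 4.47e-05). Its 4 probe sets ran from -0.09 to 2.26 with NICD and 2 were called. With Notch1 L1601P+∆P they ran from 0.09 to 0.80 and 1 was called. MAP2K1, the kinase MEK1, differed by -0.62 (adjusted p = 1.92e-06). HRAS, a Ras GTPase, differed by -0.32 (adjusted p = 0.0112), which was lost in 2 of 19 alternatives, cyclic loess among them (-0.22, adjusted p = 0.0505).

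Of 19 genes that MAPK signalling induces, 12 fell with NICD, 2 rose and 5 were not called, where 18.1% of all genes fell and 9.54% rose. Their median was -0.45 beside -0.02 over all genes. EPHA2, an ephrin receptor, showed the largest fall, at -1.05 ± 0.06 (adjusted p = 2.80e-08). The feedback inhibitor SPRED2 followed at -1.0 ± 0.05 (adjusted p = 1.61e-08) and the early transcription factor EGR1 at -0.91 ± 0.09 (adjusted p = 9.72e-06). CCND1, cyclin D1, rose by 0.94 ± 0.07 (adjusted p = 4.98e-07), and FOS, an AP-1 factor, by 0.23 (adjusted p = 0.00910). For SPRED2, 2 of 3 probe sets were called. Of the same 19, 4 fell and 1 rose with Notch1 L1601P+∆P, where 5.12% of all genes were called, 2.95% lower. Their median was -0.11 beside -0.01 over all genes. SPRED2 differed by -0.44 (adjusted p = 0.000317), and CCND1 rose by 0.39 (adjusted p = 0.00694). Over all probe sets, 1 of 3 probe sets of SPRED2 and 1 of 2 of CCND1 were called with Notch1 L1601P+∆P. PHLDA1 and SPRED1 differed by -0.36 (adjusted p = 0.0226) and -0.26 (adjusted p = 0.0113), calls that some alternatives lost. In the Notch1 L1601P+∆P comparison 11 of the 66 genes were called in all, where 5.12% of all genes were, and this count fell to 6 with only both groups in the fit. It fell to 6 without vector replicate 1, 7 without vector replicate 2 and 5 without vector replicate 3. Without Notch1 L1601P+∆P replicate 1 it was 4, and without Notch1 L1601P+∆P replicate 2 it was 6. Calls over all genes fell too, from 1012 to 718 with only both groups in the fit. In the fits without those arrays, in the same order, they numbered 704, 749, 592, 628 and 566. With full-length Notch1, limma called 0 of 66. At an unadjusted p under 0.05, 1 was higher and 3 were lower.

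**Figure D5:**
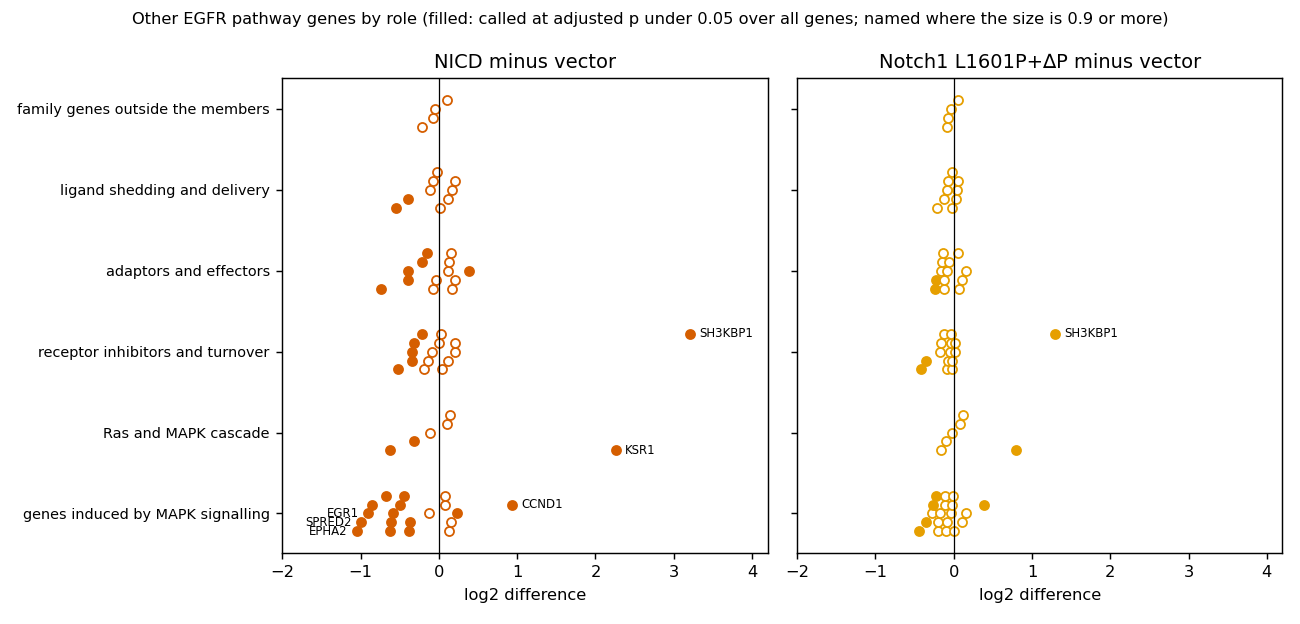
Log2 difference from vector of each tested gene of the 6 role lists (points, filled where called), for NICD (left) and Notch1 L1601P+∆P (right), 1 row per list, with a line at 0. The genes that MAPK signalling induces include 12 called lower with NICD and 4 with Notch1 L1601P+∆P, and SH3KBP1 (3.21) and KSR1 (2.26) stand highest with NICD.

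Markers of other cell types moved with NICD in part. Of the epithelial list 2 of 4 were called lower, where 18.1% of all genes were. The mean over the list was 9.83 to 9.95 on vector arrays and 9.59 to 9.72 on NICD arrays. Of the 3 tested basal markers 2 were higher, where 9.54% of all genes were, with means of 12.66 to 12.74 and 13.05 to 13.20. Of the fibroblast, endothelial and blood lists 1 gene each was higher, of 5, 4 and 4, beside the same 9.54%. They were DCN (10.85 with vector and 11.21 with NICD), KDR (4.59 and 5.64) and CD14 (8.75 and 11.34). The means over those lists were 6.22 to 6.27, 5.0 to 5.04 and 6.23 to 6.32 with vector and 6.37 to 6.41, 5.24 to 5.34 and 6.95 to 7.03 with NICD. No other gene of these lists was called with NICD. Lowest in each list were PTPRC of blood cells (3.63 and 3.63), CDH5 of endothelium (3.60 and 3.56) and LUM of fibroblasts (3.17 and 3.28). Others read higher, such as COL1A1 (7.70 and 7.85), PECAM1 (6.56 and 6.58), CD79A (6.63 and 6.87) and CD3E (6.10 and 6.12). On Notch1 L1601P+∆P arrays the means were 12.99 to 13.05 for the basal and 6.54 to 6.61 for the blood list. The part of these marker shifts in the EGFR, EREG, HBEGF and TGFA values was not tested.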

How the data were processed

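RNA of 12 samples, 3 in each of 4 groups, was measured on Affymetrix arrays. The values are log2 signals that the authors deposited. Per the submitters' processing notes, RMA and limma were used, and no version is given in the sources used here. RMA's quantile step gives arrays nearly one distribution, so a shift of most genes one way cannot be seen, and dim signals are compressed.

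Here limma 3.58.1 in R 4.3.3 was fitted on all 12 arrays with group means as the only terms. The 8 residual degrees of freedom gained 4.09 by moderation. Genes were named from the platform annotation, of whose probe sets 41091 carried 1 symbol. A gene's value was its brightest probe set (19775 genes), and all 54613 probe sets other than controls were fitted too. All tests were two-sided, over 6 comparisons. Intervals are 95% intervals of the fit. Replicate numbers were checked for pairing. Alternatives were a replicate block, only the groups compared, cyclic loess, a filter on probe sets under 6, mean probe sets, adjustment over all probe sets, a robust trend and leaving out each array. The fit was tested on simulated data. Promoter windows were searched as given in RefSeq, with NRG1 left out.

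The members, lists and alternatives were chosen with earlier results of these data known. Every measured member gene is described, with some ERBB3 and NRG1 probe sets given only as a range. From each list up to 3 called genes per direction with the largest change are named, and the 3 genes nearest to the ligand and to the receptor with the largest NICD difference.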

Additional observations from a re-analysis of the deposited data

How the results depend on the processing

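The calls of EGFR, TGFA, EREG and HBEGF between NICD and vector kept their direction and their side of the threshold in 19 of 19 alternatives, with ranges of -0.75 to -0.63, 0.38 to 0.59, -1.31 to -0.69 and -0.92 to -0.41. The member genes called with Notch1 L1601P+∆P against vector numbered 1, and 2 after cyclic loess and 0 with the mean of all probe sets of a gene. The other pathway genes called in that comparison numbered 11, 6 with only the groups compared, and 4 to 12 when each array was left out in turn. Over all genes those numbers were 1012, 718 and 566 to 1118. Same-numbered samples of different groups correlated between -0.11 and 0.16 in their deviations. Of these pairs 1 of 18 was over 0.1, beside 5 of 36 pairs with different numbers. No effect shared by same-numbered samples was seen, which does not show how the replicates were prepared. With the replicate block 4 member genes were called with NICD and 1 with Notch1 L1601P+∆P, 5171 in place of 5460 genes were called with NICD, and 845 in place of 1012 with Notch1 L1601P+∆P. No direction of a called value reversed. With 3 arrays a group, small differences in the dim probe sets of EGF and BTC could not be measured.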

Other observations

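EREG lies on chromosome 4 in a cluster with AREG, EPGN and BTC, next to chemokine genes, in the gene order of RefSeq GRCh38.p14. The order is CXCL3, CXCL2, MTHFD2L, EPGN, EREG, AREG, BTC, PARM1, RCHY1 and THAP6, and EPGN and AREG were not analysed here. These neighbours were named after the fall of EREG was known. CXCL2, a neutrophil chemokine, rose from 8.97 ± 0.08 with vector to 10.30 ± 0.05 with NICD, by 1.33 ± 0.06 (limma adjusted p = 3.05e-09), and by 0.30 with Notch1 L1601P+∆P (adjusted p = 0.0106). MTHFD2L, between CXCL2 and the ligand genes, differed by -0.01 with NICD and BTC by -0.10, and neither was called. RCHY1 differed by -0.22 (adjusted p = 0.00314) and PARM1 rose by 0.27 (adjusted p = 0.0338) with NICD. CXCL3 and THAP6 differed by 0.15 and -0.07 and were not called.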
